A study of Homo sapiens with 8 samples.

Results

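The 10 genes described here are the ETS transcription factor genes ERG and FLI1, the endothelial junction genes CDH5 and PECAM1, the receptor gene CALCRL, the small GTPase gene RHOJ, and the vascular receptor tyrosine kinase genes KDR, FLT1, TEK and TIE1. They were chosen by name, with the differences between the study's 2 groups of tumours already known from these same arrays, so those differences are given below as descriptions, and a count of members past a threshold supports nothing. Each had 1 transcript cluster (the probe group that reports a gene) among the 17709 clusters with a gene symbol, which stand for 17687 symbols, and all 10 identifiers matched the human gene table. RNA was measured in 8 xenograft tumours of SK-OV-3, an established human ovarian cancer cell line; the hosts were nude mice, which lack T cells. In 4 tumours (BORA) the cells carried pIND_BORA, a vector for overexpression of the mitotic cofactor BORA, and in 4 (EV) they carried pIND_EV, labelled as the empty vector. No drug, time point or host age is given in the labels. The labels also do not say whether a group was derived from 1 transfected pool or whether each tumour had its own mouse, so p-values here speak to the spread among the 8 samples alone, and part of it may be technical.

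ERG and FLI1 are close relatives within the ETS family, whose members bind DNA at a GGAA core. In adult endothelium both keep up genes of endothelial identity and junctions, and both also act in blood stem cells and megakaryocytes. VE-cadherin (CDH5) and PECAM1 hold endothelial cells together, the VEGF receptors KDR and FLT1 and the angiopoietin receptor TEK with its partner TIE1 receive vascular growth signals, CALCRL receives adrenomedullin, and RHOJ is a CDC42-like GTPase of endothelial cells. The vessels of a xenograft grow in from the mouse, while the probes of this array are designed for human RNA. How far mouse RNA is read by them was not tested. In bulk tumour RNA, a change in the number of cells of a type and a change in RNA per cell cannot be told apart.

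The start regions of the members with a single listed start are shown because ETS factors bind at GGAA, so a reader can see how often those letters occur in 2 members that were higher in BORA tumours (CALCRL, RHOJ) and in 3 that were not (KDR, FLT1, TIE1). Each sequence holds 250 bases before and 50 after the start, from RefSeq on GRCh38.p14, 5′ to 3′ on the strand of the gene, and capitals mark GGAA or its reverse complement TTCC.
CALCRL, chr2:187448203-187448502, minus strand: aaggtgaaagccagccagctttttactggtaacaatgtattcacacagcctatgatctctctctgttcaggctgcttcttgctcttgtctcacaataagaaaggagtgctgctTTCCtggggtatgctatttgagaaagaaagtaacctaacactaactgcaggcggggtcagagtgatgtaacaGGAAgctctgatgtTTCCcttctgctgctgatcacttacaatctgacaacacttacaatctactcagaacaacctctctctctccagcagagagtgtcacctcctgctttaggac
RHOJ, chr14:63204193-63204492, plus strand: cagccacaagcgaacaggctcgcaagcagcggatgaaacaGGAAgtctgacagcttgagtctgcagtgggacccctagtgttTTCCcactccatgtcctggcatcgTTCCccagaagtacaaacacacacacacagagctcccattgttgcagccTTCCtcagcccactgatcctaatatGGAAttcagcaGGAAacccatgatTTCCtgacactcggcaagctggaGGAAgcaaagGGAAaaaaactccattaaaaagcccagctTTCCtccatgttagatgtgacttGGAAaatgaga
KDR, chr4:55125546-55125845, minus strand: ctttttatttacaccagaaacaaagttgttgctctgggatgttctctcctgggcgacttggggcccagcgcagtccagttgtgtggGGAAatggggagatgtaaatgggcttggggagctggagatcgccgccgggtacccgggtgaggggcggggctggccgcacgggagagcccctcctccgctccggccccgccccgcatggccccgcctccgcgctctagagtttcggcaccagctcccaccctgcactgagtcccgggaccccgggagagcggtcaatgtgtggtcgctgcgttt
FLT1, chr13:28495079-28495378, minus strand: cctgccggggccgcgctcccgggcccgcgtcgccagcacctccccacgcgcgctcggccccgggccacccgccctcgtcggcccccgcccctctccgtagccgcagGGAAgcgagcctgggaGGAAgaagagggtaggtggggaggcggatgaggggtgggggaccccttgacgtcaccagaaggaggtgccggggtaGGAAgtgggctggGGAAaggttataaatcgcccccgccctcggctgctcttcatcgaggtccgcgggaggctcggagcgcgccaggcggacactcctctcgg
TIE1, chr1:43300732-43301031, plus strand: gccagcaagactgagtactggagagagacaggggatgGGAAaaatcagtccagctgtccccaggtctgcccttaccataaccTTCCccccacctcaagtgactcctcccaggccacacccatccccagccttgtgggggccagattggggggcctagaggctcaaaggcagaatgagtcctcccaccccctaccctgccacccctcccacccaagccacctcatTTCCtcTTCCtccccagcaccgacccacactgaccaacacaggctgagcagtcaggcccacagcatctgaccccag
Both strands were searched and overlapping matches were each counted. RHOJ had 11 matches to GGAA, FLT1 and TIE1 had 4 each, CALCRL had 3 and KDR had 1, and the median over all 35116 windows of this length was 3. GGAA was present in 95.5% of all windows, so its presence does not set any member apart. The longer form CAGGAAGT was present in 3.08% of all windows and, among the members' windows, once, in RHOJ; it contains the shorter motifs. The form AGGAAG was present in 33.6% of all windows and occurred 3 times in RHOJ, 2 times in FLT1, once each in CALCRL and TIE1 and in 2 overlapping windows of ERG. CCGGAAGT, in 4.14% of all windows, occurred in 0 of the 11 windows of these genes. ERG had 4 listed starts with 2, 2, 6 and 1 matches to GGAA, and TEK 2 starts with 4 and 7; the arrays do not show which start was used. FLI1, CDH5 and PECAM1 are not shown. A match is a run of letters and not a measured binding site.

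The 8 arrays had similar medians (6.96 to 7.07 on the log2 scale). The 95th percentile of an array's 612 negative control probes, used here as its background limit, lay between 7.62 and 8.24, and 36.3% to 44.3% of clusters exceeded it. The BORA transcript separated the groups, at 12.76 ± 0.23 against 6.63 ± 0.57 (SD, n = 4 each). EV replicate 1 stood apart from the rest: its correlation with the other arrays over all clusters was 0.943 to 0.954, and theirs with each other 0.981 to 0.992, so each member's difference is given over 8 arrays and again over the 7 without it; for other genes a single difference is that over 8 arrays. Clusters below the limit in both groups had a median difference of -0.11 between BORA and EV tumours and the others of 0.12, so small negative values of dim genes are close to the general shift.

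The members fell into 6 genes that were higher in all 4 BORA tumours than in all 4 EV tumours (ERG, FLI1, CDH5, PECAM1, CALCRL and RHOJ) and 4 receptor kinase genes whose groups overlapped (KDR, FLT1, TEK and TIE1). Over all clusters 4.45% were higher without overlap and 4.91% lower. The median difference of the 10 members was 1.39 log2 units over 8 arrays and 1.24 over 7, where that of all clusters was -0.026 and -0.029. Counts from limma, at a Benjamini-Hochberg adjusted p under 0.05 over all clusters, are given for completeness. Over 8 arrays ERG and RHOJ were among the called clusters (2 of 10), where 0.102% of all clusters were called higher and 0% lower. Over 7 arrays ERG, FLI1, CALCRL and RHOJ were (4 of 10), where 0.435% were called higher and 0.0791% lower. CALCRL lost its place over 7 arrays whichever further array was left out, and over 8 arrays ERG and RHOJ lost theirs without any one of the 4 BORA tumours or EV replicates 2, 3 or 4. Since the members were picked with this contrast known, nothing is read from these counts.

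**Figure D1:**
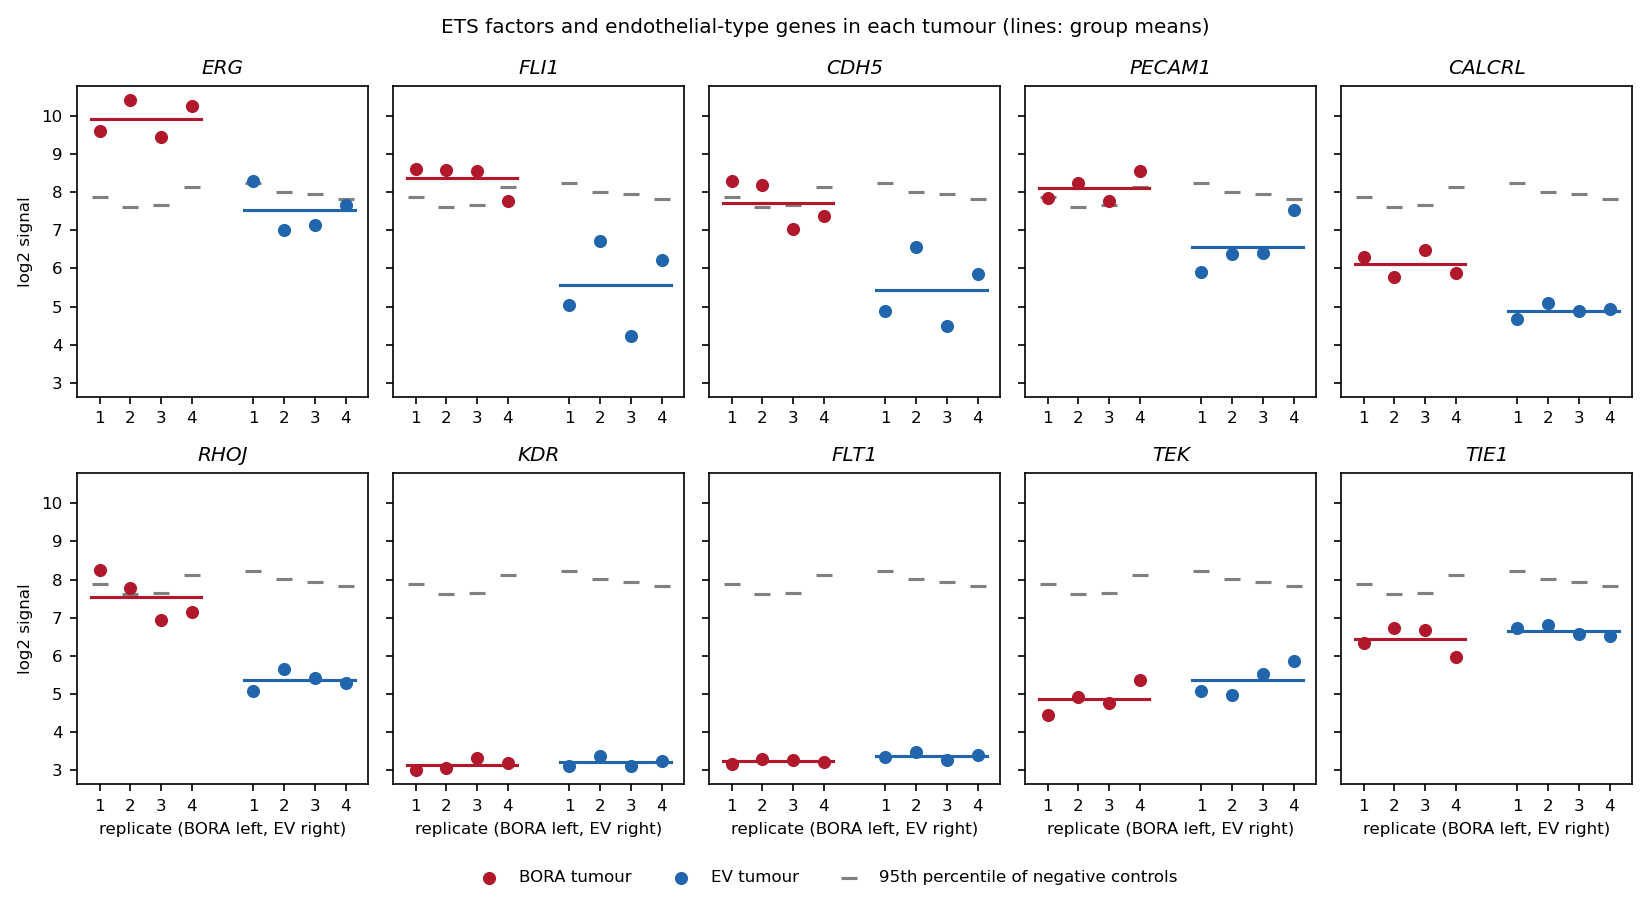
Log2 signal of each member (y axis, log2 units) in each tumour (x axis, replicate number; BORA in red on the left, EV in blue on the right), with lines at the group means and grey dashes at the 95th percentile of each array's negative controls. The first 6 genes separate the groups without overlap, while KDR, FLT1, TEK and TIE1 overlap. CALCRL, KDR, FLT1, TEK and TIE1 lie below the dashes in all 8 arrays.

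ERG, which encodes the ETS factor most typical of endothelium, was at 9.61, 10.41, 9.45 and 10.26 in BORA replicates 1 to 4 and at 8.30, 6.999, 7.15 and 7.67 in EV replicates 1 to 4. All 4 BORA tumours lay above the background limit of their array. Among EV tumours EV replicate 1 alone exceeded it, by a small margin (8.30 against 8.24), and it was the highest EV value, although this tumour was the lowest or second lowest EV tumour for the other 5 genes that were higher in BORA. The difference was 2.40 (SE 0.32), or 5.29-fold, over 8 arrays and 2.66 (SE 0.26), or 6.31-fold, over 7. ERG was above the limit in 1 of the 4 EV tumours, so the size of these folds is uncertain. The 7 arrays leave that tumour out, so no EV value there exceeded its limit. With EV tumours under their limit set at it, the BORA mean was 3.77-fold higher over 8 arrays (1.91 log2 units).

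FLI1, the close relative of ERG, was at 8.60, 8.59, 8.55 and 7.76 in BORA tumours and at 5.04, 6.72, 4.23 and 6.23 in EV tumours. BORA replicate 4 stood below the other 3 BORA tumours and below the limit of its array (8.13), while no EV tumour reached its limit. The EV tumours were widely spread, with a SD of 1.13 against 0.41 in BORA tumours. The measured difference was 2.82 (SE 0.49), and 2.65 (SE 0.48) over 7 arrays. With the EV tumours set at their background limits, the mean of the measured BORA values was 1.29-fold higher (0.37 log2 units, less than the SE). BORA replicate 4 entered at its measured value under its limit, so this is not a strict lower bound. The measured difference was 1.90 over 7 arrays when EV replicate 3, the lowest EV value, was also left out.

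CDH5, the gene of VE-cadherin, was at 8.30, 8.18, 7.03 and 7.38 in BORA tumours and at 4.89, 6.56, 4.48 and 5.86 in EV tumours. BORA replicates 1 and 2 exceeded the limit of their arrays and the other 6 tumours did not. In EV tumours its order was that of FLI1, with replicates 2 and 4 high and 1 and 3 low. The measured difference was 2.28 (SE 0.46) over 8 arrays and 2.09 (SE 0.45) over 7. Both group means lay under the background limit, so no fold is given.

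PECAM1, whose product joins endothelial cells to each other and is also found on platelets and leukocytes, was at 7.86, 8.24, 7.78 and 8.55 in BORA tumours and at 5.90, 6.37, 6.40 and 7.54 in EV tumours. The groups did not overlap, although EV replicate 4 came close to the lowest BORA tumour. BORA replicates 2, 3 and 4 exceeded the background limit. The measured difference was 1.56 (SE 0.33) over 8 arrays, 1.34 (SE 0.30) over 7, and 1.89 over the 7 arrays left when EV replicate 4 is taken out instead of EV replicate 1. No EV tumour exceeded its limit, and against those limits the mean of the measured BORA values was 1.08-fold higher (0.11 log2 units, less than the SE). BORA replicate 1 lay just under its own limit (7.86 against 7.87), so this is not a strict lower bound.

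RHOJ, a GTPase gene that ERG is known to act on in endothelium, was at 8.26, 7.78, 6.93 and 7.15 in BORA tumours and at 5.08, 5.65, 5.43 and 5.28 in EV tumours. As with CDH5, BORA replicates 1 and 2 were the higher 2 of the group and exceeded their limit. The EV tumours lay close together (SD 0.24 against 0.60 in BORA tumours), all below the lowest BORA tumour. The measured difference was 2.17 (SE 0.28), and 2.08 (SE 0.29) over 7 arrays. As for CDH5, both group means lay under the limit and no fold is given.

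CALCRL, the receptor gene whose product pairs with RAMP proteins, was at 6.29, 5.78, 6.49 and 5.88 in BORA tumours and at 4.67, 5.08, 4.88 and 4.94 in EV tumours. The groups were separate, but all 8 values lay below the background limit. CALCRL exceeded 79.4% to 87.3% of the negative controls in BORA arrays and 53.9% to 66.8% in EV arrays. The difference was 1.22 (SE 0.19) over 8 arrays and 1.14 (SE 0.20) over 7.

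KDR, the main signalling receptor gene for VEGF-A, was at 3.01, 3.06, 3.32 and 3.18 in BORA tumours and at 3.11, 3.36, 3.10 and 3.25 in EV tumours. These signals exceeded 7.19% to 15.7% of the negative controls, so neither group had a measurable level. FLT1, a VEGF receptor gene whose product also traps the ligand, was likewise at 3.17 to 3.29 in BORA and 3.26 to 3.49 in EV tumours, above 10.6% to 18.8% of the controls. The differences were -0.062 (SE 0.14) for KDR and -0.14 (SE 0.13) for FLT1, and over 7 arrays -0.092 (SE 0.16) and -0.14 (SE 0.15). At such signals a difference was not detectable, which is not evidence of equal levels.

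TEK, the angiopoietin receptor gene, was at 4.45, 4.92, 4.75 and 5.35 in BORA tumours and at 5.08, 4.96, 5.53 and 5.86 in EV tumours. TIE1, its partner receptor, was at 6.34, 6.73, 6.68 and 5.96 in BORA tumours and at 6.72, 6.80, 6.57 and 6.52 in EV tumours. Both overlapped between groups and lay below the limit in every array. The differences were -0.49 (SE 0.25) for TEK and -0.22 (SE 0.19) for TIE1, and over 7 arrays -0.58 (SE 0.26) and -0.20 (SE 0.21), opposite in sign to those of the 6 higher genes.

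The clusters with the profile most like that of ERG and of FLI1 were sought over all 17709 clusters and 8 arrays, as the smallest root mean square difference after each cluster's own mean was subtracted. For ERG these were RNF128, a ubiquitin ligase gene (0.51 log2 units), HSPG2, the gene of the basement membrane proteoglycan perlecan (0.52), OAS2, an interferon-induced RNA sensor gene (0.55), PTPRR, a phosphatase gene (0.63), and FEZ1 (0.63). For FLI1 they were LRRN1 (0.45), the member CDH5 (0.47), the thrombin receptor gene F2RL2 (0.54), the basement membrane collagen gene COL4A1 (0.58) and ECSCR, an endothelial surface protein gene (0.58). CDH5 and ECSCR were thus 2 of the 5 clusters nearest to FLI1. RNF128, OAS2 and LRRN1 were below the background limit in every array, with highest values of 6.36, 6.16 and 7.18. Of the members, RHOJ came nearest to ERG (0.69, rank 9 of all clusters), followed by PECAM1 (0.75, rank 21), CDH5 (0.88, rank 65), CALCRL (0.90, rank 72) and FLI1 (0.98, rank 225), so FLI1 did not follow ERG most closely. These likenesses take in the difference between the groups and carry no test.

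**Figure D2:**
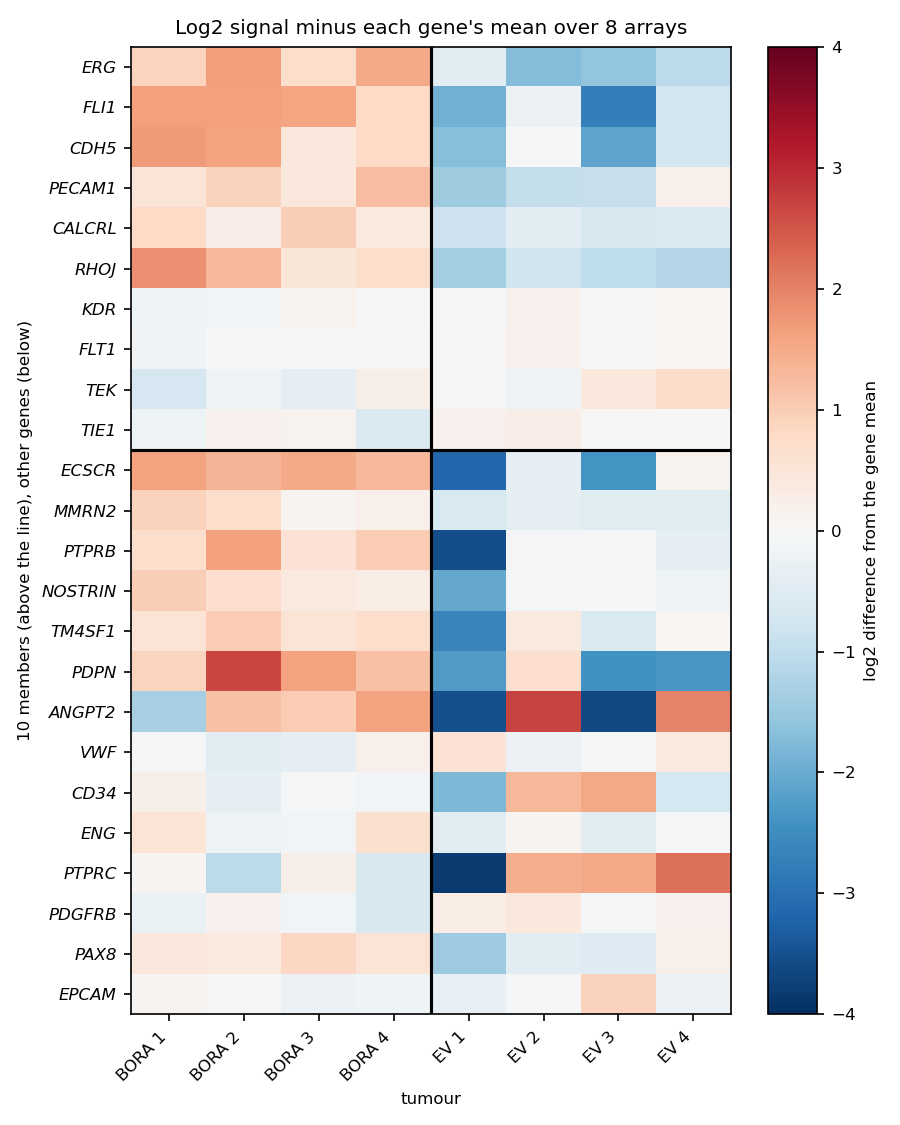
Colour shows log2 signal minus the mean of each gene over 8 arrays (red above, blue below, scale in log2 units) for the 10 members above the line and 14 other named genes below it, with BORA tumours left of the vertical line and EV tumours right. FLI1, CDH5 and ECSCR are lowest in EV replicates 1 and 3, ERG is lowest in EV replicates 2 and 3, and KDR and FLT1 are nearly white throughout.

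The other endothelial genes were a list of 38, chosen by name for their use as endothelial markers, and all 38 were measured. In limma 0 rose and 0 fell over 8 arrays and over 7 (adjusted p under 0.05); before adjustment 1305 clusters of all had higher and 1269 lower values over 8 arrays at p under 0.05. The values were evenly split, 19 higher and 19 lower, with a median difference of -0.068 (-0.10 over 7 arrays) beside -0.026 (-0.029) for all clusters. Of the 38 genes, 31 were below the limit in both groups, and the median over all clusters of that kind was -0.11. Among the rest, ECSCR, PTPRB, TM4SF1, NOSTRIN, PROCR (0.58) and ENG (0.43) had higher values and EGFL7 (-0.25) a lower one. The groups did not overlap for 5 higher genes, ECSCR, MMRN2, PTPRB, TM4SF1 and NOSTRIN, and for 5 lower genes, ADGRL4, STAB1, APLNR, SELE and MMRN1. The shares over all clusters were 4.45% higher and 4.91% lower without overlap. All 5 lower genes were below the limit in both groups.

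ECSCR was at 11.54, 11.28, 11.46 and 11.22 in BORA tumours and at 6.79, 9.58, 7.54 and 10.06 in EV tumours. The BORA tumours lay close together (SD 0.15) and the EV tumours were widely spread (SD 1.57), all below them. EV replicates 2 and 4 were again the higher 2. The difference was 2.88 (SE 0.64, limma adjusted p = 0.139), and 2.32 over 7 arrays (adjusted p = 0.0615).

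MMRN2, an endothelial matrix protein gene, was at 7.25, 7.03, 6.42 and 6.53 in BORA tumours and at 5.71 to 5.93 in EV tumours, below the limit throughout (0.98, SE 0.20, limma adjusted p = 0.129). PTPRB, the gene of the phosphatase VE-PTP that acts on VE-cadherin and TEK, was at 9.11, 10.05, 8.98 and 9.41 in BORA tumours and at 4.84, 8.36, 8.36 and 8.05 in EV tumours. Its difference was 1.98 over 8 arrays and 1.13 over 7 (limma adjusted p = 0.278 and 0.0794), with EV replicate 1 far below the rest. NOSTRIN and TM4SF1, genes of an endothelial nitric oxide synthase adaptor and of a surface protein shared by endothelium and carcinomas, were at 1.16 and 1.39 over 8 arrays and at 0.67 and 0.74 over 7, and none of these 3 genes passed the test. ADGRL4, an endothelial adhesion receptor gene, had the lowest value of the list, -0.85 (SE 0.18, adjusted p = 0.137), and STAB1 was at -0.55.

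The vessel markers VWF, CD34, ENG, ESAM, ROBO4, EMCN and CLDN5 overlapped between the groups over 8 arrays, whereas CDH5, PECAM1, ECSCR and MMRN2 did not. VWF, the gene of von Willebrand factor, was at 5.78, 5.37, 5.45 and 6.03 in BORA tumours and at 6.39, 5.58, 5.75 and 6.21 in EV tumours, below the limit in all 8 arrays. ESAM, ROBO4, EMCN and CLDN5 were also below it in all 8 arrays, among 28 of the 38 genes. At such signals an overlap is not evidence of equal levels. CD34 was at 8.08, 7.44, 7.77 and 7.72 in BORA tumours and at 6.03, 9.16, 9.38 and 7.15 in EV tumours, so the 2 highest values were in EV tumours. ENG, the gene of the TGF-beta co-receptor endoglin, was at 7.94 to 8.78 in BORA and 7.68 to 8.23 in EV tumours, with overlapping groups. The average level of the 38 genes was 6.02 to 6.18 in BORA arrays and 5.81 to 6.15 in EV arrays. Whether the members' transcripts came from the SK-OV-3 cells or from host vessels was not tested.

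**Figure D3:**
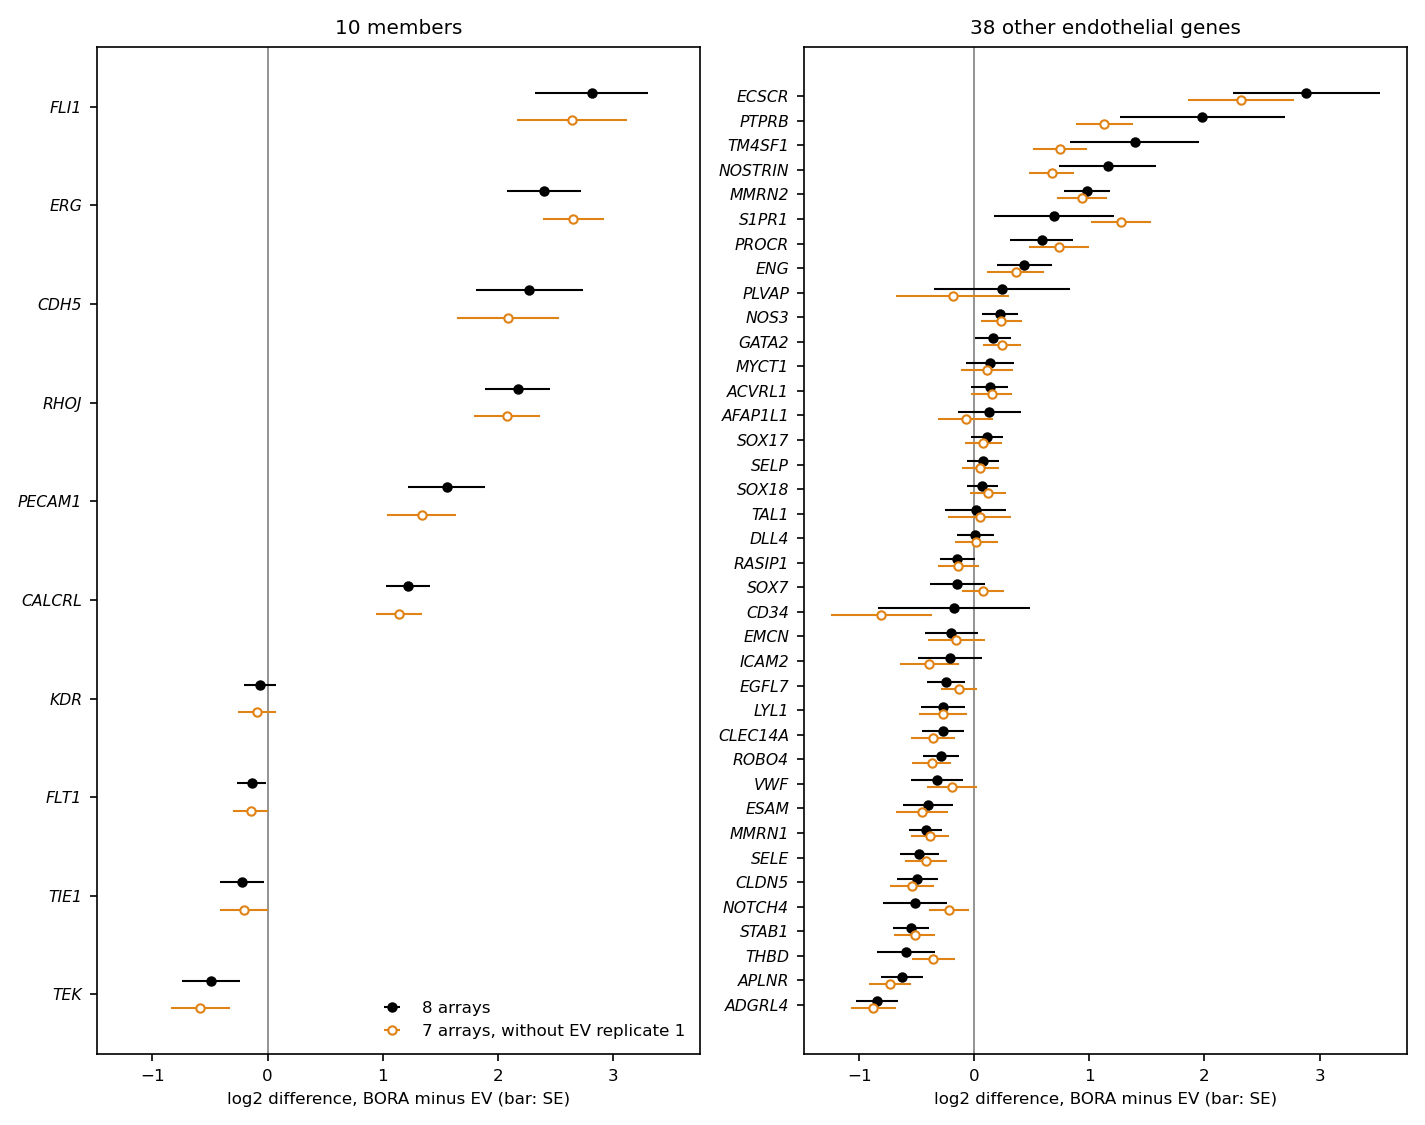
Log2 difference, BORA minus EV (x axis, log2 units; bars are SE of the limma fit), for the 10 members (left) and the 38 other endothelial genes (right), over 8 arrays (filled) and over 7 without EV replicate 1 (open). The 6 members ERG, FLI1, CDH5, PECAM1, CALCRL and RHOJ lie above 1 and the other 4 lie at or below 0, while most of the other endothelial genes lie within 1 unit of 0, with ECSCR the highest at 2.88.

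Lymphatic endothelial genes formed a list of 5, of which 0 rose and 0 fell in limma over 8 or 7 arrays. PDPN, the gene of podoplanin, a surface protein of lymphatic endothelium that carcinoma cells and fibroblasts can also make, was at 6.98, 8.77, 7.70 and 7.29 in BORA tumours and at 3.85, 6.77, 3.68 and 3.78 in EV tumours. The groups did not overlap, with EV replicate 2 far above the other EV tumours. PDPN exceeded the limit in BORA replicates 2 and 3 alone, and both group means lay under it, so the size of its difference is uncertain. The difference was 3.16 (SE 0.68, limma adjusted p = 0.137) and 2.94 over 7 arrays (adjusted p = 0.0863). The other lymphatic genes, PROX1 (-0.026), LYVE1 (-0.44), FLT4 (-0.30) and CCL21 (0.45), were below the limit in every array.

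Ligands and partners of the member receptors and of VE-cadherin made up a list of 21, of which 20 were measured; 0 rose and 0 fell in limma over 8 or 7 arrays, and the median difference was -0.031. NRP2, a VEGF co-receptor gene, was at 12.56 to 12.95 in BORA tumours and at 10.17, 11.75, 12.52 and 12.14 in EV tumours (1.14, adjusted p = 0.293; 0.65 over 7 arrays). PGF, the ligand gene of FLT1, was at 9.83 to 11.01 in BORA tumours and at 11.93, 8.66, 7.66 and 9.71 in EV tumours (0.98, adjusted p = 0.574), and at 1.79 over 7 arrays (adjusted p = 0.0985). EV replicate 1 held the highest PGF value of the 8 tumours.

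ANGPT2, a ligand gene of TEK, was named after its values were seen. It was at 7.77, 10.29, 10.12 and 10.71 in BORA tumours and at 5.60, 11.82, 5.50 and 11.09 in EV tumours. EV replicates 2 and 4, the higher EV tumours for FLI1, CDH5 and ECSCR, were also those with high ANGPT2. ANGPT1, the other main TEK ligand gene, was at -0.64 (adjusted p = 0.243) with all values below the limit. RAMP2 and RAMP1, whose products pair with CALCRL, were lower on average in BORA tumours, at -0.72 and -0.32 (adjusted p = 0.336 and 0.410), and also below the limit. ADM, the gene of adrenomedullin, was at 9.65 in BORA replicate 1 and at 12.18 to 13.94 in the other 7 tumours.

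The other 26 members of the ETS family were all measured. In limma 0 rose and 0 fell over 8 arrays and over 7, 18 values were above 0 and 8 below over 8 arrays, and the median difference was 0.31 (0.18 over 7 arrays). ETV1, an activating ETS gene of the PEA group, was at 9.71, 8.93, 9.77 and 8.67 in BORA tumours and at 5.53, 7.97, 7.22 and 9.11 in EV tumours, which overlap (1.82, SE 0.64, adjusted p = 0.274; 1.17 over 7 arrays). ELF5, an epithelial ETS gene, was at 1.57 (SE 0.51, adjusted p = 0.244) and above the limit in BORA replicate 1 alone (8.80). ELK3, an ETS gene with a role in vessels, was at 1.04 (adjusted p = 0.326) and ELK1, a serum response cofactor gene, at 0.64 (adjusted p = 0.233). ELK1 and ETV6 were the 2 of the 26 that were higher without overlap, and FEV, below the limit in every array, was the 1 that was lower. The shares over all clusters were 4.45% higher and 4.91% lower. SPI1, the ETS factor of myeloid cells, was at 6.62 to 7.25 in BORA and 5.63 to 6.81 in EV tumours, below the limit in all arrays. ETV2, the ETS factor that starts the endothelial lineage in embryos, was at 3.98 to 4.40 and 3.92 to 4.66.

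**Figure D4:**
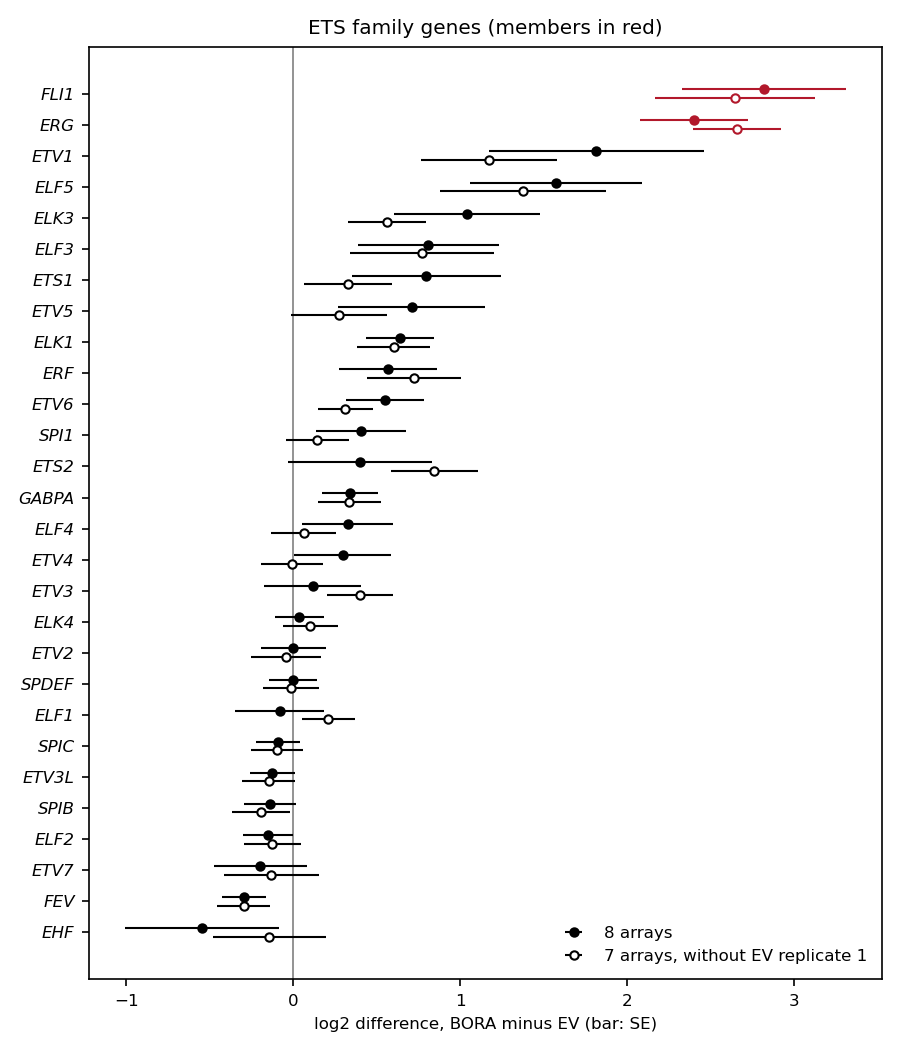
Log2 difference, BORA minus EV (x axis, log2 units; bars are SE of the limma fit), for the 28 ETS family genes over 8 arrays (filled) and 7 arrays (open), with ERG and FLI1 in red. ERG and FLI1, at 2.40 and 2.82, lie highest over 8 arrays, followed by ETV1 at 1.82; over 7 arrays ELF5 (1.38) comes before ETV1 (1.17).

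ERG and FLI1 each lie beside another ETS gene, ERG beside ETS2 on chromosome 21 and FLI1 beside ETS1 on chromosome 11. ETS2 was at 10.90, 11.84, 11.56 and 11.55 in BORA tumours and at 12.40, 11.09, 10.55 and 10.21 in EV tumours (0.40, adjusted p = 0.685). EV replicate 1 held its highest value, and over 7 arrays the ETS2 difference was 0.85 (SE 0.26, limma adjusted p = 0.168). ETS1, also an endothelial ETS factor, was at 10.96, 11.92, 11.93 and 11.79 and at 9.45, 11.69, 10.96 and 11.31 (0.80, adjusted p = 0.438, and 0.33 over 7 arrays). Among the 3 nearest measured genes on each side of ERG (DSCR8, DSCR10, KCNJ15, ETS2, PSMG1 and BRWD1) the differences ran from -0.45 to 0.40. Over 7 arrays they ran from -0.44 to 0.85. Around FLI1 (KIRREL3, KIRREL3-AS3, ETS1, KCNJ1, KCNJ5 and KCNJ5-AS1) the differences ran from -0.22 to 0.80 over 8 arrays and from -0.25 to 0.33 over 7. In limma 0 of these 12 neighbours passed over 8 or 7 arrays.

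Genes of blood cells were set beside the members because ERG, FLI1 and PECAM1 are also active there. Of 7 measured platelet and megakaryocyte genes out of 8, 0 passed in limma, all 7 had values below 0 (median -0.21) and all lay below the limit in every array. Over all clusters below the limit in both groups, 32.6% had values above 0 and the median was -0.11. PPBP, a platelet chemokine gene, was at -0.36 (adjusted p = 0.451). Of 11 measured leukocyte genes out of 12, 0 passed over 8 arrays and 1 fell over 7. The gene that fell was PTPRC, of the leukocyte phosphatase CD45, which was at 10.83, 9.68, 10.96 and 10.09 in BORA tumours and at 6.91, 12.19, 12.24 and 12.94 in EV tumours (over 7 arrays -2.07, limma adjusted p = 0.0194; over 8 arrays -0.68, adjusted p = 0.803). The average level of the 11 genes was 6.09 to 6.49 in BORA arrays and 6.63 to 7.08 in EV arrays. The 7.08 belongs to EV replicate 1, where S100A9, a myeloid calcium-binding protein gene, was at 14.51 against 4.07 to 5.11 in the other 7 tumours, while PTPRC was at its lowest there. Without S100A9 the average was 6.29 to 6.68 in BORA arrays and 6.33 to 7.18 in EV arrays, with EV replicate 1 inside the BORA range. Over 8 arrays 9 of the 11 genes had values below 0 and 2 above (median -0.38). Of the 11 genes, 9 were below the limit in both groups, where 32.6% of all clusters of that kind had values above 0. CD68 was the 1 gene of the list above the limit in all 8 arrays. Its difference was 0.35 (SE 0.27, limma adjusted p = 0.567) and 0.38 over 7 arrays, with overlapping groups. CD163, a macrophage scavenger receptor gene, was at -1.01 (adjusted p = 0.302). It was above the limit in EV replicate 2 alone, and both group means lay under it, so the size of its difference is uncertain. CD14, CSF1R, ITGAM and CD3E were below the limit in all 8 arrays.

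Pericyte and smooth muscle genes, the mural cells of vessels, were measured for 10 of 12. In limma 0 passed over 8 or 7 arrays, 9 of 10 had values below 0 (7 of 10 over 7 arrays) and the median was -0.33. Of the 10 genes, 8 were below the limit in both groups, and the median over all clusters of that kind was -0.11. The others were TAGLN (0.79, SE 0.61) and ACTA2 (-0.37, SE 0.29). PDGFRB, the defining receptor gene of pericytes, was at 4.34 to 5.15 in BORA and 4.94 to 5.40 in EV tumours, below the limit in every array. DES was at -0.84 (adjusted p = 0.209) and also below it in every array. The average level of the 10 genes was 5.78 to 5.97 in BORA arrays and 5.87 to 6.41 in EV arrays, or 5.81 to 6.07 and 5.90 to 6.36 without NOTCH3, a mural cell receptor gene that was high in EV replicate 1. The part of such cells in the members' differences was not tested.

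Epithelial keratin genes, EPCAM and PAX8 were above the limit in all 8 tumours, 6 of 12 measured epithelial and ovarian carcinoma genes in all. CDH1 and CLDN4 were above it in 7 tumours and MSLN in 3, while WT1, MUC16 and CLDN3 were below it in every tumour, so the list shows epithelial RNA and does not identify the cell line. Of these 12 genes, from a list of 13, 0 passed in limma over 8 or 7 arrays. PAX8, a transcription factor gene of Müllerian epithelium, was at 13.90, 13.86, 14.32 and 14.04 in BORA tumours and at 12.03, 13.07, 12.95 and 13.68 in EV tumours, without overlap (1.10, SE 0.31, adjusted p = 0.199; 0.79 over 7 arrays). EPCAM, an epithelial adhesion gene, was at 13.63 to 13.96 and at 13.52 to 14.76. CLDN4, a tight junction gene, was at -0.94 (adjusted p = 0.282) and at -1.24 over 7 arrays (adjusted p = 0.0705). PAX8 was thus higher in the same 4 tumours as the 6 members, and its part in their differences was not tested.

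Genes associated with ERG in prostate cancer, where ERG is switched on in epithelial cells by a gene fusion, were measured for 13 of 14. In limma 0 rose and 0 fell over 8 or 7 arrays, with 5 values above 0, 8 below and a median of -0.19. KCNS3, a potassium channel subunit gene, had the smallest p of the list and was lower without overlap (-0.66, adjusted p = 0.222). KCNS3, TDRD1 (-0.39), CRISP3 (-0.26) and PLA1A (-0.19) were all below the limit in every array. PLAU, the urokinase gene, was at 13.53 to 14.29 in BORA and 13.64 to 14.26 in EV tumours. For RHOJ, 9 of 10 relatives and partners were measured and 0 passed in limma over 8 or 7 arrays. RHOC had the smallest p of them, at 14.12 to 14.58 against 13.70 to 14.02 (0.54, adjusted p = 0.209), and RHOQ, the closest relative of RHOJ, was at -0.085.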

How the data were processed

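One array was analysed for each of 4 BORA and 4 EV tumours. The deposited table holds values per probe set that were read as log2 signals from their range; folds hold only on that reading. Per the submitters' processing notes the authors used Affymetrix Expression Console; its version, the algorithm and a genome build were not recorded in those notes. The study text names the Human Gene 1.0 ST array, whereas the row names and the supplied annotation belong to another Affymetrix human design.

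All 17709 clusters with 1 gene symbol were fitted with limma 3.58.1 in R 4.3.3 (lmFit, eBayes, no covariates, no filter), as BORA minus EV, over 8 arrays and over 7 without EV replicate 1; a call is an adjusted p (Benjamini-Hochberg) under 0.05. Each member's cluster was the brightest of its symbol. SDs are over tumours and SEs are those of the fit. The steps were tested on simulated data. Members, the 10 other gene lists (159 genes that are no members, 151 measured) and the motifs were chosen with earlier results of these data known. Named genes were BORA, the members, list genes past the threshold or with the smallest p, defining markers, the 5 clusters most like ERG or FLI1 and 3 neighbours on each side; others are examples chosen after their values were seen, among them those whose groups did not overlap. Alternatives were a replicate block, quantile normalization, median centring, an intensity trend with robust fitting (statmod 1.5.0), array weights, filters on dim clusters and leaving out each array; averages without S100A9 or NOTCH3 were added after seeing the data. The folds for FLI1 and PECAM1, and 3.77 for ERG, set EV tumours at their negative control limit and took BORA tumours as measured. ERG in EV replicate 1, above its limit, also entered as measured. Each member had 1 cluster, so averaging clusters could change nothing. The labels name no batch.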

Additional observations from a re-analysis of the deposited data

Results flagged for a closer look

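FLI1 in BORA replicate 4 was at 7.76, where the next BORA tumour was at 8.55. Its gap to the nearest tumour was 0.936 of the range of the 4 BORA tumours, above Dixon's 95% critical value for a group of 4. The 10 members gave 20 groups of 4 tumours, of which 1 was beyond that value, and chance alone gives about 1 in 20.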

How the results depend on the processing

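Of 256 values of the 10 members under other settings, 255 kept their sign and moved by less than 1 SD between replicates; the remaining one was KDR over 8 arrays, at 0.010 after quantile normalization against -0.062. With 1 further array left out, ERG ran from 2.23 to 2.66 over 8 arrays and from 2.50 to 2.86 over 7, FLI1 from 2.38 to 3.21 and 1.90 to 3.14, and CDH5 from 1.95 to 2.65 and 1.51 to 2.55. Among the other settings in which it was tested, ERG was called in 6 of 15 over 8 arrays and 13 of 13 over 7, RHOJ in 5 of 13 and 11 of 12, FLI1 in 1 of 13 and 5 of 13, CALCRL in 2 of 13 and 3 of 12, PECAM1 in 1 of 14 and 3 of 13, and CDH5 in 0 of 13 and 2 of 12. With clusters below the median left out, ERG and PECAM1 remained over 8 arrays, joined by FLI1 over 7, and ERG alone passed the negative control limit on 4 or more arrays.

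The count of all clusters called depended on the setting. Over 8 arrays 18 rose and 0 fell. Array weights gave 43 and 5, the intensity trend 1 fallen, and the clusters above the median alone 9 risen. Leaving out 1 array gave 1 to 77 risen (77 without EV replicate 1; 4, 2, 4 and 1 without BORA replicates 1 to 4; 3, 2 and 9 without EV replicates 2 to 4) and 0 to 14 fallen. Over 7 arrays 77 rose and 14 fell. Median centring gave 46 risen, the intensity trend 28 fallen and array weights 24 fallen with 98 risen. Leaving out a further array gave 24 to 106 risen and 1 to 46 fallen. The cause was not tested.

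Of the other listed genes 0 were called over 8 arrays, and over 7 PTPRC fell. Over 8 arrays PTPRC fell without EV replicate 1 and PDPN rose without EV replicate 2, 1 gene each. Over 7 arrays the genes that rose were S1PR1 with the intensity trend (1), ECSCR and PGF with array weights (2), and 0 to 4 with a further array left out: PDPN without EV replicate 2, ECSCR without EV replicate 3, and ECSCR, PGF, ETV1 and PAX8 without EV replicate 4. In the last case CD34 and CD163 fell with PTPRC, so 0 to 3 fell, and PTPRC lost its call without BORA replicate 2 or 4.

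The replicate numbers are shared between groups but the labels do not say that they pair the tumours. Deviations of same-numbered tumours correlated at -0.11, 0.039, 0.071 and -0.019, and 1 of 4 BORA tumours correlated best with its own number. With the number as a block, 1 cluster rose over 8 arrays and 0 members were called, and over 7 arrays 5 fell in all while PDPN and PGF rose among the listed genes (2). Signals under the negative control limit restrict what can be said of KDR, FLT1, TEK, TIE1 and CALCRL on every array, of CDH5 and RHOJ in both group means, and of FLI1 and PECAM1 in the EV tumours, and the number of arrays limits precision.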
